A study of Mus musculus with 4 samples.

Results

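Mixed lineage leukemia was set against B/T biphenotypic leukemia (the submitters' B/T BAL), a pair of mouse leukemias that differed in the fusion genes given to the cells of origin. Both members were chosen by their titles, and they are 2 of the 4 arrays of the series. In each leukemia, hematopoietic stem or precursor cells had been transduced with fusions of the genes MLL (Kmt2a in the mouse) and AF4 (Aff1 in the mouse), and C57BL6 mice had gone on to develop disease. The mixed lineage leukemia came from cells given both AF4-MLL and MLL-AF4. The B/T leukemia came from cells given AF4-MLL alone, as did the third leukemia, of proB type (proB ALL, an acute lymphoblastic leukemia). The fourth array held normal bone marrow without a fusion. RNA came from whole marrow of moribund mice some months on. The cells were typed by flow cytometry and not sorted, so each array can hold residual normal marrow cells. The labels give no age, no number of mice per array and no promoter for the fusions.

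Each group had 1 array, so no difference below has a replicate check, and no p-value is given. Fusion and immunophenotype changed together between the arrays and cannot be told apart. In unsorted marrow, fewer cells of a type and less RNA per cell cannot be told apart either. The proB and normal arrays are printed beside some values for scale, and the normal array is the same one for each leukemia.

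MLL is a histone H3 lysine 4 methyltransferase that keeps Hox genes and their cofactor Meis1 active in blood stem cells, and AF4 belongs to a complex that releases paused RNA polymerase. The t(4;11) translocation joins them and gives rise to a pair of reciprocal fusion proteins, MLL-AF4 and AF4-MLL. Leukemias with MLL translocations can carry lymphoid and myeloid features side by side. A thymocyte precursor rearranges its T-cell receptor genes with the RAG enzymes and terminal transferase, pairs the new beta chain with the pre-T receptor alpha chain, and depends on Notch signals as it does so. Granulocyte and monocyte precursors instead rely on the factors PU.1 and C/EBP, which drive the proteases of the primary granules and the receptors of phagocytes.

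Values are signals, 1 per probe set on a linear scale, and a fold is the ratio of signals between the mixed lineage and B/T arrays. Of 45101 probe sets, 34945 carried 1 gene symbol, and these covered 18193 genes. For each gene the probe set that was brightest on average, in log2, stood for it. The median of all signals, 189, served as a floor: 13471 genes exceeded it on at least 1 of the 2 arrays and are called measured. Where the dimmer side lay at or below the floor it was set to the floor, and the fold is written "at least". A gene counts as higher on 1 array when that fold reached 2. Differences given for lists of genes are mixed lineage minus B/T on the log2(signal + 51.5) scale, so a negative value is higher in B/T leukemia. That scale understates the change of dim genes. A gene above the floor on 1 array alone has to be brighter there, though not by 2-fold. Counts within a list are therefore read beside those over all genes.

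Over all genes, 2546 (18.9%) were at least 2-fold higher in mixed lineage leukemia, against 2662 (19.8%) at least 2-fold higher in B/T leukemia, while 8263 (61.3%) were within 2-fold. The median difference was 0.09. The totals were near equal, and the far tails were not. At 4-fold the counts were 841 and 875 and at 8-fold 289 and 266, but at 32-fold 2 genes were higher in mixed lineage leukemia against 39 in B/T leukemia, and at 64-fold 0 and 16. The largest fold was at least 45.6 in the first direction, for Slco4c1, and at least 220.1 in the second, for Cym. Of the genes, 5995 had at least 2 probe sets measured, and in 134 of them (2.24%) these differed 2-fold or more in opposite directions. Of 2431 genes called higher on an array and measured by 2 or more probe sets, 1416 had at least 2 of them called the same way.

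The arrays were not alike in their dim range. Signals exceeded the floor for 57.4% of probe sets in mixed lineage leukemia but 48.9% in B/T leukemia, and the 2nd percentile of signal was 20.4 and 3.97. Actb had 3' to 5' ratios of 3.10 and 4.72, and Gapdh of 1.24 and 1.14. The 9 bright probe sets for spiked-in bacterial control transcripts read lower on the mixed lineage array by a median of -0.35 in log2 signal, from -0.58 to -0.08. For that reason small shared shifts of bright genes are given below beside these controls.

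**Figure D1:**
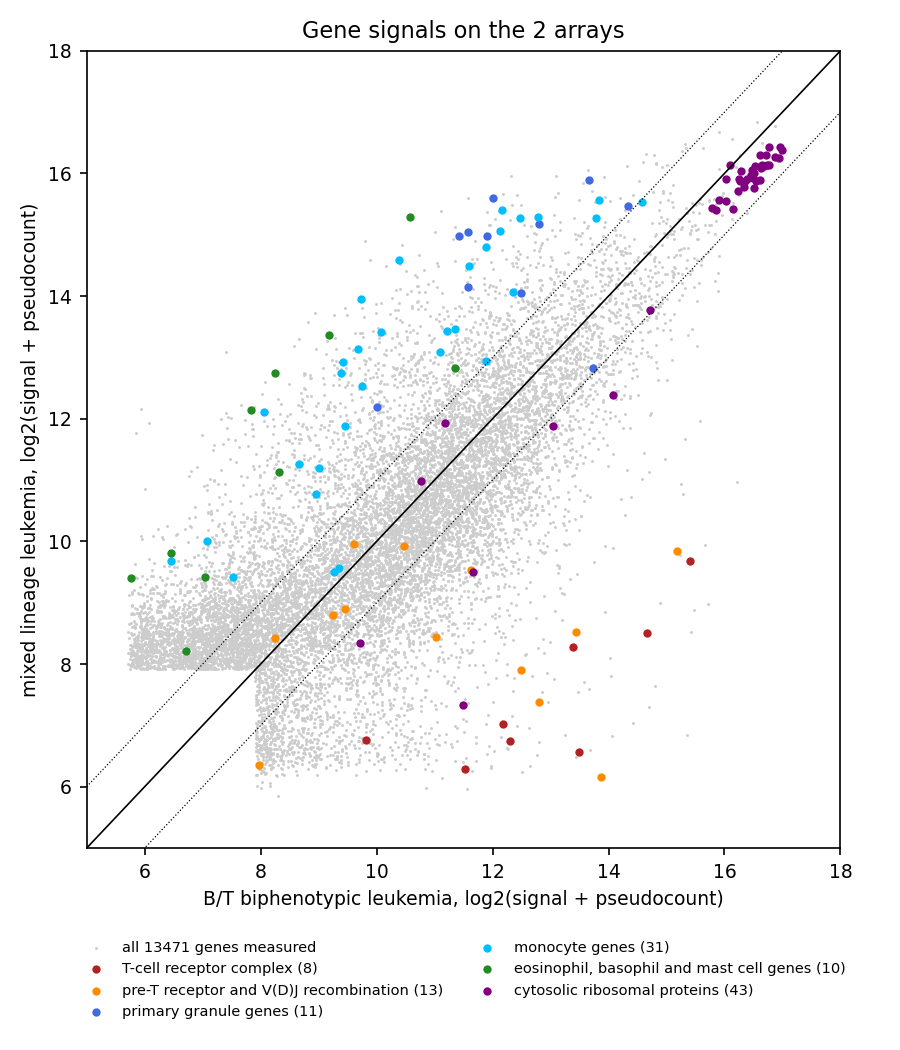
Signals of the 13471 measured genes on the B/T array (horizontal) and the mixed lineage array (vertical), both as log2(signal + 51.5), 1 point per gene; the solid line marks equal values, the dotted lines a difference of 1, and colours mark 6 lists. The 8 T-cell receptor genes lie far below the lower dotted line, the granule, monocyte and basophil genes mostly above the upper one, and most ribosomal protein genes between the lines at the bright end.

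Genes of the T-cell receptor complex were higher in B/T leukemia, and of all lists theirs had the median farthest from 0. The CD3 chains carry the signal of the T-cell receptor. Cd3d read 765 on the mixed lineage array, 43499.8 on the B/T array, 12582 on the proB array and 1002 in normal marrow, which made it 56.9-fold higher in B/T leukemia than in mixed lineage leukemia. Cd3g read 314 on the mixed lineage array, 25806 on the B/T array, 3290.5 on the proB array and 632 in normal marrow (82.3-fold), and Cd3e read 43.8 on the mixed lineage array, 11474 on the B/T array, 32.3 on the proB array and 372 in normal marrow (at least 60.7-fold). Cd3e was therefore bright on the B/T array alone, while Cd3d and Cd3g were also well above normal marrow on the proB array. The coreceptors of thymocytes followed. Cd8a read 258 against 10607 (41.1-fold) with all 5 measured probe sets higher in B/T leukemia, Cd8b1 55.4 against 4987 (at least 26.4-fold), and Cd4, which was dimmer, 57.2 against 848 (at least 4.48-fold), a call lost when probe sets were averaged. All 8 measured genes of the receptor complex were at least 2-fold higher in B/T leukemia, and their median difference was -5.40 against 0.09 over all genes. Their summed signal was 1598 on the mixed lineage array, 104731 on the B/T array, 21606 on the proB array and 2867 in normal marrow. On the mixed lineage array it was below that of normal marrow.

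Genes of receptor rearrangement differed in the same direction. Rag1, the recombinase that cuts receptor genes, read 19.8 on the mixed lineage array, 14988 on the B/T array, 1.76 on the proB array and 1721 in normal marrow (at least 79.2-fold). Ptcra, the pre-T receptor alpha chain, read 115 on the mixed lineage array, 7093 on the B/T array, 114 on the proB array and 123 in normal marrow (at least 37.5-fold), and thus exceeded the floor on the B/T array alone. Dntt, the terminal transferase that adds bases at the joins, read 314 against 11061 (35.2-fold). Arpp21, a phosphoprotein also found in thymocytes, read 189 against 5691 (at least 30.1-fold), and Xrcc6, the Ku70 subunit that binds broken ends, 864 against 37035 (42.9-fold). Lig4, the ligase of end joining, was 4.54-fold higher. Rag2 stayed near the floor, at 30.4 against 201 (1.06-fold). Of 13 measured genes on this list, 7 were higher in B/T leukemia, 0 in mixed lineage leukemia and 6 in neither, with a median of -2.10. The promoter of Ptcra is shown because its gene exceeded the floor only in B/T leukemia and because it holds 2 copies of CAGCTG, an E-box of the kind bound by the basic helix-loop-helix factors E2A and HEB. The sequence is the 250 bases upstream of the annotated start, from RefSeq on build GRCm38.p6, chr17:46763713-46763962, minus strand, with the E-boxes in capitals, 60 and 49 bases before the start.
Ptcra: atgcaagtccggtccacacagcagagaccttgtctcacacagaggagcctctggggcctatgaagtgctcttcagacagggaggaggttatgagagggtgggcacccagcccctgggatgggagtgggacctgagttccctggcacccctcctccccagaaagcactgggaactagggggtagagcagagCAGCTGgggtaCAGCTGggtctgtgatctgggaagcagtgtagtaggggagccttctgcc
Among RefSeq promoter windows of 300 bases, 250 before and 50 after a start, CAGCTG on either strand lay in 16.3% of all 32851, in 15.7% of 13815 of measured genes, in 17.5% of 292 of genes at least 8-fold higher in B/T leukemia and in 16.3% of 301 of genes at least 8-fold higher in mixed lineage leukemia. The shares were close to each other.

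Signalling proteins downstream of the receptor were higher in the same array. Lat, the membrane scaffold of the pathway, read 106 on the mixed lineage array, 26454 on the B/T array, 4436 on the proB array and 765 in normal marrow (at least 139.9-fold). Camk4, a calcium-dependent kinase, read 37.9 against 11053 (at least 58.4-fold), and Zap70, the kinase that docks on CD3, 136 against 7311 (at least 38.7-fold). Sh2d1a, the adaptor SAP, read 7061 on the proB array, near the 7934 of the B/T array. It was at least 42.0-fold higher in B/T than in mixed lineage leukemia, and Themis, a thymocyte selection protein, at least 28.6-fold. Bcl10 and Malt1, which link antigen receptors to NF-kappaB, went the other way, at 9608 against 2613 (3.68-fold) and 3124 against 1032 (3.03-fold), and the call of Malt1 was lost when its probe sets were averaged. The adaptor Lcp2 hardly differed, at 5948 against 6302. Of 26 measured genes 16 were higher in B/T leukemia and 2 in mixed lineage leukemia, with a median of -2.09.

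On the cell surface, Thy1, the classical thymocyte antigen, read 453 on the mixed lineage array, 54065 on the B/T array, 28959 on the proB array and 995 in normal marrow (119-fold). Cd27 and Cd28, costimulatory receptors, were at least 37.4-fold and 26.1-fold higher in B/T leukemia. Cd5, which dampens receptor signals, read 239.7 against 4297 (17.9-fold), Cd2, an adhesion receptor, 932 against 9782 (10.5-fold), and Il2ra, the high-affinity IL-2 receptor chain, 117 against 1921 (at least 10.2-fold). Cd7 and Cd69 were exceptions. Cd7, an early T and NK antigen, read 517 on the mixed lineage array, 19.0 on the B/T array, 9369 on the proB array and 582 in normal marrow, and Cd69, an activation antigen, 1156 on the mixed lineage array, 248 on the B/T array, 3555 on the proB array and 495 in normal marrow. Of 22 measured surface genes 17 were higher in B/T leukemia and 2, these exceptions, in mixed lineage leukemia. On the proB array Cd2 and Il2ra read 12388 and 1882, so neither was particular to B/T leukemia. Over normal marrow the list median was 2.78 in proB ALL, 1.66 in B/T leukemia and -0.59 in mixed lineage leukemia. The call of Cd69 was lost with the floor at the 75th percentile of signals. Dpp4, the surface peptidase CD26, was on no list and was named with its values known; it read 710.1 against 8995 (12.7-fold).

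The factors that direct T-cell fate were also brighter in B/T leukemia. Lef1, a Wnt-responsive factor of thymocyte precursors, read 222 on the mixed lineage array, 16719 on the B/T array, 3199 on the proB array and 687 in normal marrow (75.3-fold). Bcl11b, which commits cells to the T lineage, read 370.3 on the mixed lineage array, 9352 on the B/T array, 231 on the proB array and 340.4 in normal marrow (25.3-fold), with 4 of 4 probe sets in the same direction. Gata3 read 76.1 against 2567 (at least 13.6-fold). The E proteins that bind E-boxes were higher as well, Tcf3 (E2A) at 561 against 4641 (8.28-fold) and Tcf12 (HEB) at 4261 against 19945 (4.68-fold), together with their inhibitor Id3 at 157 against 2515 (at least 13.3-fold). Ikzf1, the pan-lymphoid factor Ikaros, was level at 22374 against 20817. Of 19 measured factors 12 were higher in B/T leukemia and 1, Runx3, in mixed lineage leukemia, and Runx3 lost that call with the higher floor and with averaged probe sets.

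**Figure D2:**
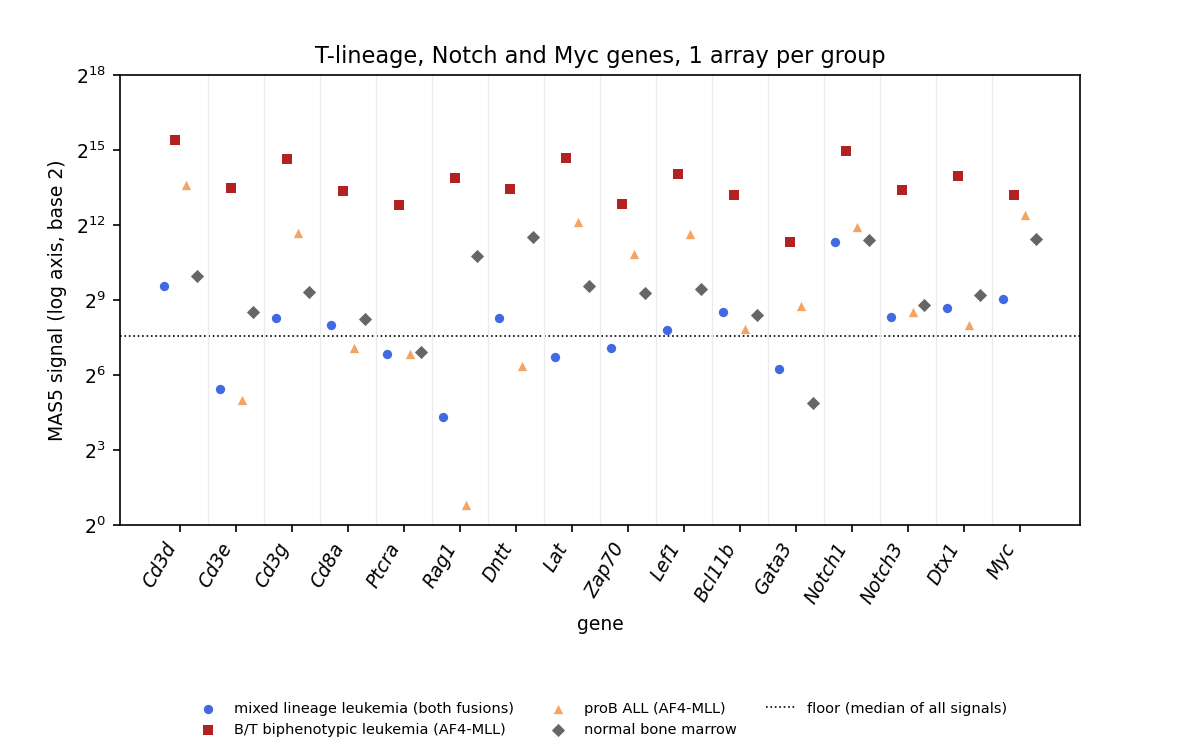
Signals of 16 T-lineage, Notch and Myc genes on the 4 arrays, 1 symbol per array on a log axis; the dotted line is the floor of 189. The B/T square is the highest of the 4 symbols for every gene shown, and the mixed lineage circle lies below the floor for Cd3e, Ptcra, Rag1, Lat, Zap70 and Gata3.

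Notch genes split by receptor. Notch1 read 2562 on the mixed lineage array, 32026 on the B/T array, 3907 on the proB array and 2682 in normal marrow (12.5-fold), and Notch3, itself a Notch target in thymocytes, read 318 on the mixed lineage array, 10902 on the B/T array, 371 on the proB array and 445 in normal marrow (34.3-fold). The targets Dtx1, Hes1 and Nrarp were 38.5-fold, at least 12.1-fold and 9.78-fold higher in B/T leukemia. Notch2 ran opposite, at 16048 on the mixed lineage array, 1175 on the B/T array, 7221 on the proB array and 3673 in normal marrow (13.7-fold). Dtx4, a Deltex family member, was 2.85-fold higher in mixed lineage leukemia. Of 24 measured genes 9 were higher in B/T leukemia, 6 in mixed lineage leukemia and 9 in neither, and the median of 0.06 did not describe either side. That median changed sign under loess (-0.0043), the higher floor (-0.21) and without x, s and a probe sets (-0.27).

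Myc, the factor that drives ribosome production and growth and a target of Notch1 in T cells, read 521 on the mixed lineage array, 9292 on the B/T array, 5373 on the proB array and 2774 in normal marrow (17.8-fold). The nucleolar proteins Nop56 and Fbl, parts of the snoRNA-guided methylation complex, read 1601 against 18957 (11.8-fold) and 6319 against 29406 (4.65-fold). Nolc1 was 4.96-fold higher and Npm1, nucleophosmin, 3.02-fold. Partners and opponents of Myc were higher in mixed lineage leukemia. Mxd1, which represses Myc targets in maturing cells, read 9625 against 1292 (7.45-fold higher in mixed lineage leukemia), Mxi1 6295 against 1346 (4.68-fold), and the shared partner Max 2462 against 519 (4.74-fold). Of 31 measured genes of the Myc network and ribosome biogenesis 23 were higher in B/T leukemia and 4 in mixed lineage leukemia, with a median of -1.50, and the median stayed between -1.54 and -1.32 under the 10 alternatives. Over normal marrow the list median was 0.76 in proB ALL, 0.75 in B/T leukemia and -0.75 in mixed lineage leukemia. The higher side was therefore not particular to B/T leukemia.

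The list of T-cell leukemia genes, as drawn here, did not follow the T-lineage program. Of 14 measured genes 5 were higher in mixed lineage leukemia, 1 in B/T leukemia and 8 in neither. Notch1, Myc, Lef1, Bcl11b and Il7r were placed on other lists and were higher in B/T leukemia. Lmo1 and Lmo2, LIM proteins that cause T-cell leukemia when misplaced, read 2599 against 332 (7.83-fold) and 5669.8 against 823 (6.89-fold) and were thus higher in mixed lineage leukemia, as was their partner Lyl1 at 5347 against 1439 (3.72-fold). In normal marrow Lmo2 and Lyl1 read 15512 and 7345. Jak3, the kinase of common gamma chain receptors, was the 1 gene of 14 higher in B/T leukemia, at 247 against 1174, a call lost with the higher floor. The median over the 14 was 0.55.

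The B-lineage side of the B/T label was not seen in most B-cell genes measured. Which lineage gave the higher Rag1, Dntt and Il7r signals of B/T leukemia was not tested, and B-cell precursors also need Il7r. Cd79a and Cd79b, the signalling chains of the B-cell receptor, read 994 on the mixed lineage array, 216 on the B/T array, 426 on the proB array and 1708 in normal marrow for the first, and 3051 on the mixed lineage array, 352 on the B/T array, 2484 on the proB array and 6035 in normal marrow for the second. Ms4a1 (CD20) read 2746 on the mixed lineage array, 261 on the B/T array, 721 on the proB array and 5634 in normal marrow. The defining factor Pax5 lay below the floor on both arrays, at 118 against 58.6, and Vpreb1, the surrogate light chain, at 97.3 against 54.1, against 11111 in normal marrow. Ebf1, the other defining factor, was below it on both arrays by the probe set that stands for it, at 138 against 117, but a pair of its other probe sets exceeded the floor in mixed lineage leukemia, at 344 against 37.5 and 199 against 6.57. On the B/T array these B-cell genes were therefore at or near the floor. Ighm, the mu heavy chain, was brighter there, at 9162 against 19421 (2.12-fold), as was Jchain at 5382 against 14247 (2.65-fold), while normal marrow read 40104 and 20477. The call of Ighm was lost under quantile, loess and 75th percentile scaling and without x, s and a probe sets. Several dimmer Ighm probe sets were farther apart toward B/T leukemia, such as 408 against 4124 and 473 against 2828. Others were within 2-fold, and 1 of these was brighter in mixed lineage leukemia, at 348 against 86.5. Cd24a was bright on both, at 52736 against 31565, and a further probe set was more than 2-fold higher in mixed lineage leukemia, at 35573 against 11030.5.

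The early and mature B-cell lists leaned to mixed lineage leukemia over B/T leukemia, with medians below normal marrow on both arrays. Plasma cell genes leaned the other way. Of 11 measured, 4 were higher in B/T leukemia and 2 in mixed lineage leukemia, with a median of -0.56. Against normal marrow, early B-cell genes had medians of -0.97 in mixed lineage and -1.86 in B/T leukemia. For mature B-cell genes these were -0.42 and -2.16. Bank1, a B-cell scaffold, read 2951 against 169 (at least 15.6-fold), and Btk, the kinase of B-cell receptor signalling that myeloid cells also use, 3213 against 358 (8.97-fold). In normal marrow they read 3290 and 4954. Erg, an ETS factor of stem and progenitor cells that was also on their list, read 3214 against 122 (at least 17.0-fold), and 1097 in normal marrow. Early B-cell genes counted 7 higher in mixed lineage leukemia against 1 in B/T leukemia among 15, and mature B-cell genes 9 and 1 among 17, with medians of 0.75 and 1.14. The exceptions were Irf4, whose 2 probe sets pointed in opposite directions, and Ralgps2 at 879 against 2266. Summed over the mature list, the signal was 30151 in mixed lineage leukemia, 13013 in B/T leukemia, 23641 in proB ALL and 44392 in normal marrow. Their part in the other differences was not tested.

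Cytotoxic genes were divided, with 1 extreme member. Gzma, granzyme A, read 931 on the mixed lineage array, 52157 on the B/T array, 54327 on the proB array and 1556 in normal marrow (56.0-fold), so it was bright in both leukemias given AF4-MLL alone. Near-identical granzyme genes may share probes, so the value is uncertain. Nkg7, a cytolytic granule protein, read 7892 on the mixed lineage array, 550.3 on the B/T array, 27934 on the proB array and 7755 in normal marrow, and Ccl5, a chemokine of effector lymphocytes, 2399 on the mixed lineage array, 255 on the B/T array, 30823 on the proB array and 4432 in normal marrow. Klrd1 (CD94) and Il18rap, a chain of the IL-18 receptor, were at least 6.84-fold and 9.59-fold higher in mixed lineage leukemia, and Klrd1 lost its call with the higher floor. All of these but Il18rap lay close to normal marrow on the mixed lineage array, within 2-fold of it. Gzmb was below the floor on both arrays and Prf1, perforin, near it at 135 against 215. Among 18 measured genes 8 were higher in mixed lineage leukemia against 3 in B/T leukemia, with a median of 1.22.

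Cytokine receptors divided by lineage. The lymphoid receptors Il7r, needed by thymocyte and B-cell precursors, and Il27ra read 1642 against 8906 (5.42-fold) and 49.1 against 1268 (at least 6.71-fold), both higher in B/T leukemia, Il27ra not with the higher floor. On the proB array Il7r read 13196 and Il27ra 834. Among 13 lymphoid receptors 6 were higher in B/T leukemia and 2 in mixed lineage leukemia. Of 22 myeloid receptors, 14 were higher in mixed lineage leukemia and 1, Il6st, the shared gp130 chain, in B/T leukemia at 626 against 2911 (4.65-fold). Il1r2, the decoy receptor for IL-1, read 9537 against 1565 (6.09-fold), Csf2rb, the common beta chain of GM-CSF, IL-3 and IL-5 receptors, 20156 against 3666 (5.50-fold), and Csf3r, the G-CSF receptor, 4651 against 976 (4.77-fold). The myeloid median was 1.38. The lymphoid median of 0.18 turned negative without the floor filter (-0.19), with averaged probe sets (-0.04) and without x, s and a probe sets (-0.96).

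Granule proteases of promyelocytes marked the mixed lineage leukemia. Elane, neutrophil elastase, read 32120.3 on the mixed lineage array, 2699 on the B/T array, 2058 on the proB array and 20277 in normal marrow (11.9-fold). Prtn3, proteinase 3, read 36889.9 on the mixed lineage array, 7126 on the B/T array, 3352 on the proB array and 24518 in normal marrow (5.18-fold), and Mpo, myeloperoxidase, 60520.1 on the mixed lineage array, 12934 on the B/T array, 4035 on the proB array and 43969 in normal marrow (4.68-fold). In all 3 the mixed lineage array was the brightest of the 4, with normal marrow next. Serpinb1a, an inhibitor of these proteases, was 12.2-fold higher, Ms4a3, a marker of granulocyte and monocyte precursors, 11.3-fold, and Ctsg, cathepsin G, 8.52-fold. Of 11 measured genes 10 were higher in mixed lineage leukemia against 0 in B/T leukemia, with a median of 2.36. Calr, a general chaperone of the endoplasmic reticulum, was the exception at 7251 against 13582. The promoters of Elane, Prtn3 and Mpo are shown because each holds GAGGAAGT, the purine-rich core bound by PU.1. The PU.1 gene Spi1 was 6.01-fold higher, but binding of PU.1 to these promoters and its effect on these genes were not tested. Each promoter shown is the 250 bases upstream of the annotated start on the plus strand, from RefSeq on GRCm38.p6, with the motif in capitals. Elane lies at chr10:79886062-79886311 with the motif 85 bases before the start, Prtn3 nearby at chr10:79879417-79879666 with the motif 95 bases before, and Mpo at chr11:87793534-87793783 with the motif 224 bases before.
Elane: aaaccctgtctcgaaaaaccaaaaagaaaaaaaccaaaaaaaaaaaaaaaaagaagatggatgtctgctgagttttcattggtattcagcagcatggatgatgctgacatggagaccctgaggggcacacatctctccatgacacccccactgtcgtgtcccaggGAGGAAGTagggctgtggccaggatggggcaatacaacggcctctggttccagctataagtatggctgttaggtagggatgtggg
Prtn3: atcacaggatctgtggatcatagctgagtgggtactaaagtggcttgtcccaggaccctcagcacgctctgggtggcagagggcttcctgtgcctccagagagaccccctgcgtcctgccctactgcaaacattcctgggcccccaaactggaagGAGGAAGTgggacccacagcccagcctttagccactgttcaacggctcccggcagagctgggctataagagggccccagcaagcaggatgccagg
Mpo: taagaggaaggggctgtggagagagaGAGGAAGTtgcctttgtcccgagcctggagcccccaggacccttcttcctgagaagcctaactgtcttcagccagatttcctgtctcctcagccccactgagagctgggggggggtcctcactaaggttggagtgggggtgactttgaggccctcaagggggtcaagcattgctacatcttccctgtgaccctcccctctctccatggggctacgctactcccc
On either strand, GAGGAAGT lay in 4 of 11 promoter windows of the primary granule genes, chosen with their letters in view, and in 3.20% of all 32851 windows. Among windows of measured genes its share was 3.13%. The motif lay in 4.32% of windows of genes at least 8-fold higher in mixed lineage leukemia. For genes at least 8-fold higher in B/T leukemia the share was 3.08%. For TTGCNNAA, a C/EBP motif read on both strands, the shares were 14.0% and 6.85%, against 10.8% of all windows and 8.91% of 13815 windows of measured genes. For TGTGGT, a RUNX core, they were 17.3% and 11.3%, against 16.8% of all windows and 1795 of the 13815 windows of measured genes, which lies between those shares. These shares describe letters in the windows and were not tested.

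Neutrophil genes of the later stages were also higher in mixed lineage leukemia, and many were bright on the B/T array too. Their median difference was below that of the primary granule genes, but above it, at 2.27 against 2.22, with averaged probe sets. S100a9 and S100a8, the calprotectin subunits, read 112499 against 119234 and 117723 against 96616. Camp, the cathelicidin of secondary granules, read 86950.0 on the mixed lineage array, 41362 on the B/T array, 11586 on the proB array and 47614 in normal marrow (2.10-fold), and Ltf, lactoferrin, 74360.1 on the mixed lineage array, 24786 on the B/T array, 2689.9 on the proB array and 42139 in normal marrow (3-fold). At the other end Mcemp1, a membrane protein of mast and myeloid cells, read 30430.0 against 835 (36.4-fold), Fcnb, ficolin B, 29035 against 1343 (21.6-fold), and Trem3, a phagocyte receptor, 42612 against 2154 (19.8-fold). Among 26 measured genes 22 were higher in mixed lineage leukemia against 0 in B/T leukemia, with a median of 1.94. Their summed signal was 1329619 on the mixed lineage array, 573274 on the B/T array, 192089 on the proB array and 678189 in normal marrow, so both leukemias of this comparison held much neutrophil RNA. The part of residual normal neutrophils in it was not tested.

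Monocyte genes were higher in mixed lineage leukemia almost throughout. Itgam, the CD11b integrin chain, read 4382 on the mixed lineage array, 216 on the B/T array, 163 on the proB array and 1262 in normal marrow (20.3-fold). Igsf6, an immunoglobulin-family receptor of myeloid cells, and Clec4a2, an inhibitory lectin receptor, were 19.9-fold and 19.0-fold higher. Vcan, versican, read 7714 on the mixed lineage array, 634 on the B/T array, 300.1 on the proB array and 157 in normal marrow (12.2-fold), and was the 1 monocyte gene below the floor in normal marrow; its call was lost with averaged probe sets. Ccr2, the receptor that brings monocytes out of marrow, was 11.6-fold higher and Fn1, fibronectin, 9.57-fold. Of 31 measured genes 28 were higher in mixed lineage leukemia against 0 in B/T leukemia, with a median of 2.60; Ace, Itgax and Plac8 made up the rest. Csf1r, the M-CSF receptor, was 3.30-fold higher. The list summed to 498481 in mixed lineage leukemia, 106626 in B/T leukemia, 156167 in proB ALL and 226783 in normal marrow.

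Myeloid transcription factors moved with these genes. Cebpd, a C/EBP factor, read 10712 on the mixed lineage array, 787 on the B/T array, 682 on the proB array and 8118 in normal marrow (13.6-fold). Nfe2, a factor of megakaryocytes and myeloid precursors, read 13334 against 1150.1 (11.6-fold), Klf4, a monocyte factor, 7885 against 834 (9.46-fold), and Cebpa, required for granulocytes, 3786 against 529 (7.16-fold). Spi1 read 7257 on the mixed lineage array, 1208 on the B/T array, 612 on the proB array and 3444 in normal marrow, and Irf8, needed for monocytes and dendritic cells, 6631 against 1789 (3.71-fold). Gfi1, which represses monocyte genes and also serves lymphoid precursors, was the highest of its list in B/T leukemia relative to mixed lineage leukemia, at 4066 against 5688, and was within 2-fold. Of 22 measured factors 15 were higher in mixed lineage leukemia against 0 in B/T leukemia, with a median of 1.82.

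**Figure D3:**
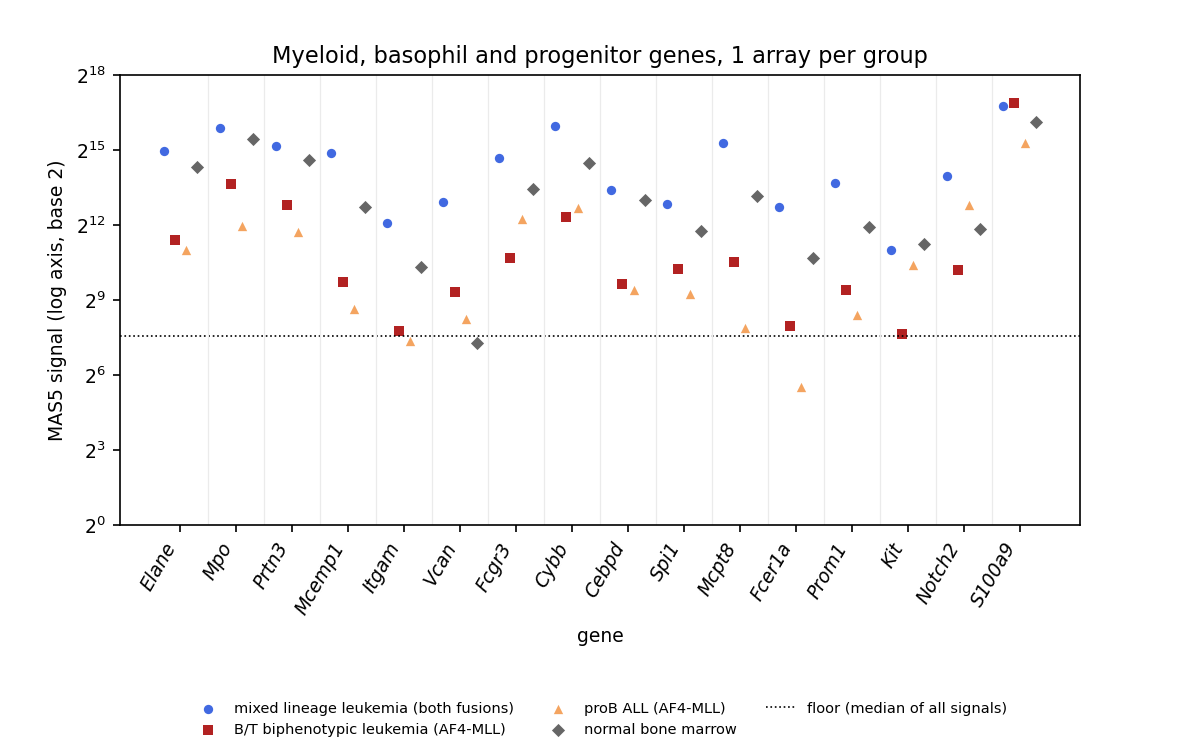
Signals of 16 myeloid, basophil and progenitor genes on the 4 arrays, 1 symbol per array on a log axis; the dotted line is the floor of 189. The mixed lineage circle exceeds the B/T square for every gene shown but S100a9, which read 112499 and 119234; for Kit the normal marrow diamond is the highest symbol.

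Phagocyte receptors and enzymes followed the same direction. Fcgr3, a low-affinity IgG receptor, read 25899 on the mixed lineage array, 1639 on the B/T array, 4815 on the proB array and 11180.0 in normal marrow (15.8-fold), and Cd33, a lectin of myeloid cells, 5653 against 384 (14.7-fold). C5ar1, the C5a receptor, was 10.7-fold higher, and Fcer1g, the signalling chain shared by Fc receptors, 5.85-fold. Of 22 Fc, complement and paired receptors 20 were higher in mixed lineage leukemia against 0 in B/T leukemia, with a median of 2.54. Among pattern recognition genes 20 of 24 were higher there and 0 in B/T leukemia, with a median of 1.95. Irak3, which restrains Toll-like receptor signals, read 4025 against 107 (at least 21.3-fold), Tirap, an adaptor of these receptors, 4377 against 387 (11.3-fold), and Clec7a, the beta-glucan receptor Dectin-1, 14070.0 against 1629 (8.64-fold).

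Most subunits of the phagocyte oxidase, which makes superoxide, were higher in mixed lineage leukemia. Cybb, the catalytic gp91phox, read 63754 on the mixed lineage array, 5063 on the B/T array, 6538 on the proB array and 22931 in normal marrow (12.6-fold). Ncf1 and Ncf4, cytosolic subunits, were 9.86-fold and 8.62-fold higher, and Cyba, the membrane partner, 4.10-fold. The broadly used GTPase Rac1 was level, at 19624 against 16872. Of 7 measured subunits 5 were higher in mixed lineage leukemia against 0 in B/T leukemia. Lysosomal genes were milder, with 11 of 23 higher in mixed lineage leukemia, 0 in B/T leukemia and a median of 0.89. Arsb, arylsulfatase B, led at 10102 against 572 (17.7-fold). Cathepsin H, Ctsh, followed at 13075 against 1886 (6.93-fold), and Ctss, the cathepsin that trims the class II invariant chain, at 36412 against 5903 (6.17-fold).

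Lipid mediators and cytokines gave a similar picture. Alox5, 5-lipoxygenase, which begins leukotriene synthesis, read 9126 on the mixed lineage array, 888 on the B/T array, 285 on the proB array and 4123 in normal marrow (10.3-fold), Pla2g7, a plasma-type phospholipase, 6453 against 416 (15.5-fold), and Ltb4r1, the leukotriene B4 receptor, 14346 against 1516 (9.46-fold). Of 15 eicosanoid genes 11 were higher in mixed lineage leukemia against 0 in B/T leukemia, with a median of 2.08. Among inflammatory cytokines the counts were 14 and 0 of 25, with a median of 1.31. Ccl3, a macrophage chemokine, read 5457 on the mixed lineage array, 362 on the B/T array, 1691 on the proB array and 428 in normal marrow (15.1-fold), Tnf 5576 on the mixed lineage array, 1033 on the B/T array, 272 on the proB array and 106 in normal marrow (5.40-fold), and Tnfsf13b, the B-cell survival factor BAFF, 2689 against 192 (14.0-fold). On the mixed lineage array both Ccl3 and Tnf were above normal marrow.

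Homing receptors included genes on both sides. Ccr1, an inflammatory chemokine receptor, read 13954 against 1229 (11.4-fold), and Cd44, the hyaluronan receptor, 30627 against 3284 (9.33-fold). Ccr9, which guides thymocyte precursors, read 1148 against 3859 by its brightest probe set and turned slightly positive, to 0.14, when its probe sets were averaged. Cxcr4, the marrow retention receptor, was within 2-fold at 13733 against 7376. Of 22 measured genes 10 were higher in mixed lineage leukemia against 2 in B/T leukemia, with a median of 1.24.

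Antigen presentation separated by class. H2-Eb1 and H2-Aa, class II chains, read 9935 against 1942 (5.12-fold) and 22441 against 5862 (3.83-fold), and the invariant chain Cd74 13732 against 3049 (4.50-fold). Class II genes counted 7 higher in mixed lineage leukemia against 1 in B/T leukemia among 13, with a median of 1.59. The 1 gene was Rfxank, a subunit of the class II regulatory complex, whose probe sets pointed in opposite directions. Class I genes counted 2 and 4 among 18, with a median of -0.12 that became 0.06 under 75th percentile scaling. The corresponding shares over all genes were 18.9% and 19.8%. H2-D1 read 37936 against 15653 (2.42-fold), while Tap2, the peptide transporter, read 1732 against 6751 (3.90-fold higher in B/T leukemia). Class I and II genes come from families of near-identical copies, and probes may be shared among them.

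Interferon-stimulated genes counted 12 higher in mixed lineage leukemia against 1 in B/T leukemia among 30, with a median of 0.78. Ifih1, the RNA sensor MDA5, read 2841 against 329 (8.64-fold), and Ifi27l2a 3777 against 479 (7.89-fold). Rsad2, viperin, read 1038 on the mixed lineage array, 820.4 on the B/T array, 1527 on the proB array and 45401 in normal marrow, within 2-fold between the leukemias and far below normal marrow in both, although 1 of its other probe sets was higher in mixed lineage leukemia, at 565 against 199. Dendritic cell genes counted 8 and 0 among 12, led by Cd209a at 964 against 56.1 and Clec10a at 1614 against 268, calls of dim genes that were lost with the higher floor. Resident macrophage genes were split, 6 higher in mixed lineage leukemia against 4 in B/T leukemia among 15. C1qb, a chain of complement C1q, read 298 on the mixed lineage array, 1907 on the B/T array, 2851 on the proB array and 5164 in normal marrow (6.40-fold), and Slc40a1, the iron exporter ferroportin, 10756 on the mixed lineage array, 1250.4 on the B/T array, 2608 on the proB array and 15859.7 in normal marrow (8.60-fold), so these macrophage genes did not move as 1 group.

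Basophil and mast cell genes were the list with the highest median, a rank lost without the floor filter, where monocyte genes had 2.60, and with the larger pseudocount, where primary granule genes had 2.34. Mcpt8, the basophil protease, read 39892 on the mixed lineage array, 1478 on the B/T array, 238 on the proB array and 9174 in normal marrow (27.0-fold). Fcer1a and Ms4a2, chains of the high-affinity IgE receptor, read 6821 on the mixed lineage array, 252 on the B/T array, 45.8 on the proB array and 1645 in normal marrow (27.1-fold) and 4455 on the mixed lineage array, 176 on the B/T array, 30.8 on the proB array and 1338 in normal marrow (at least 23.6-fold). Hdc, the enzyme that makes histamine, read 10445 against 527 (19.8-fold), and Cpa3, mast cell carboxypeptidase, 7222 against 2567 (2.81-fold). Basophil genes on the mixed lineage array thus exceeded normal marrow. Prg2, the eosinophil major basic protein, did not, at 2186 on the mixed lineage array, 267 on the B/T array, 248 on the proB array and 43661 in normal marrow. Of 10 measured genes 9 were higher in mixed lineage leukemia against 0 in B/T leukemia, with a median of 3.50 that ranged from 1.95 to 4.24 under the alternatives, and 6 listed genes were below the floor on both arrays.

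Stem and progenitor genes leaned to mixed lineage leukemia, with 1 large exception. Hhex, a homeobox factor of progenitors, read 8959 on the mixed lineage array, 443 on the B/T array, 4449 on the proB array and 4436 in normal marrow (20.2-fold). Prom1, prominin-1, read 13201 on the mixed lineage array, 668 on the B/T array, 335 on the proB array and 3926 in normal marrow (19.8-fold). Kit, the stem cell factor receptor, read 2061 on the mixed lineage array, 201 on the B/T array, 1366 on the proB array and 2413 in normal marrow (10.2-fold), and Gata2, a factor of stem cells, basophils and mast cells, 2925 against 532 (5.50-fold). Sox4, a factor of lymphoid precursors, was the exception at 1695 on the mixed lineage array, 39714 on the B/T array, 3516 on the proB array and 5255 in normal marrow (23.4-fold), with all 6 measured probe sets higher in B/T leukemia. Cd34 was near the floor on both, at 244 against 252. Among 22 measured genes 14 were higher in mixed lineage leukemia against 2 in B/T leukemia, with a median of 1.87; Prtn3 was on this list as well as among the granule genes.

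Hox genes, the best known targets of MLL fusions, were dim on both arrays. Hoxa9 read 319.8 on the mixed lineage array, 269 on the B/T array, 171 on the proB array and 743 in normal marrow by the probe set that stands for it, while the other read 512.5 against 199.8 and was more than 2-fold higher in mixed lineage leukemia. Hoxa10 read 306 on the mixed lineage array, 80.0 on the B/T array, 41.4 on the proB array and 88.4 in normal marrow. Hoxa5 read 695 against 192 (3.61-fold), Hoxa4 384 against 13.8 (at least 2.03-fold), Hoxa3 446 against 56.2 (at least 2.36-fold) and Meis1 385 against 34.6 (at least 2.03-fold), and these were the 4 called higher in mixed lineage leukemia by the probe sets that stand for each gene. The calls of Hoxa4, Hoxa3 and Meis1 were lost under loess, those of Hoxa4 and Meis1 under quantile normalization, that of Hoxa5 with averaged probe sets and that of Meis1 without x, s and a probe sets. Pbx3, a TALE partner of Hox proteins, went the other way at 843 against 2653 (3.15-fold). Of 22 measured genes 4 were higher in each leukemia and 14 in neither, while 9 listed genes were below the floor on both arrays. These counts were near the shares over all genes, 18.9% higher in mixed lineage and 19.8% in B/T leukemia. The median of 0.95 became 0.25 without the floor filter and -1.03 with the floor at the 75th percentile, so it had no stable direction.

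Kmt2a, the mouse MLL gene, read 1659.5 on the mixed lineage array, 4001 on the B/T array, 2869 on the proB array and 1160.0 in normal marrow (2.41-fold), with 2 of 2 probe sets higher in B/T leukemia. Aff1, the mouse AF4 gene, read 5091 on the mixed lineage array, 4263 on the B/T array, 2004 on the proB array and 4329 in normal marrow, within 2-fold. Whether these probe sets read the transduced fusions was not tested, so neither value checks the labels. Cxxc1, a subunit of a related methyltransferase complex, read 801 against 4332 (5.41-fold), and Aff3, an AF4 family member, 774 against 2989 (3.86-fold). Ell2, an elongation factor partner of AF4, was 3.60-fold higher in mixed lineage leukemia. Of 31 measured genes of MLL and AF4 complexes 11 were higher in B/T leukemia and 1 in mixed lineage leukemia, with a median of -0.58.

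Other chromatin regulators leaned the same way. Dnmt3b, a de novo DNA methyltransferase, read 654 on the mixed lineage array, 4269 on the B/T array, 4183 on the proB array and 1227 in normal marrow (6.53-fold), and Cbx6, a Polycomb chromodomain protein, 280.2 against 3656. The isocitrate dehydrogenases ran in opposite directions. Idh1, the cytosolic enzyme, read 18395 on the mixed lineage array, 1628 on the B/T array, 1678 on the proB array and 6403 in normal marrow (11.3-fold higher in mixed lineage leukemia), and Idh2, the mitochondrial one, 1126 on the mixed lineage array, 5333 on the B/T array, 986 on the proB array and 2653 in normal marrow (4.74-fold higher in B/T leukemia), though Idh2 lost its call without x, s and a probe sets. Ezh2, the Polycomb methyltransferase, was within 2-fold at 8383 against 15591. Of 28 measured genes 11 were higher in B/T leukemia and 3 in mixed lineage leukemia, with a median of -0.77.

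Erythroid genes were low in both leukemias. Klf1, the erythroid factor, read 192 on the mixed lineage array, 165 on the B/T array, 104 on the proB array and 21735 in normal marrow, and the list summed to 24150.3, 37593 and 456951 on the mixed lineage, B/T and normal arrays. Megakaryocyte genes summed to 7121, 4689.5 and 44675 in the same order. Stromal genes were brighter in B/T leukemia, at a sum of 18945 against 139512, of which Thy1, Pdgfrb and Col1a2 made up most. Pdgfrb, the platelet-derived growth factor receptor beta, read 461 on the mixed lineage array, 30356 on the B/T array, 459 on the proB array and 427 in normal marrow (65.8-fold), and Col1a2, a type I collagen chain, 826 on the mixed lineage array, 38648 on the B/T array, 1285 on the proB array and 2397 in normal marrow (46.8-fold). The other type I chain, Col1a1, read only 400.4 against 655, and the niche factor Cxcl12 4840.3 against 2592. Of 18 measured stromal genes 8 were higher in B/T leukemia, 3 in mixed lineage leukemia and 7 in neither, with a median of -0.79. The share higher in B/T leukemia over all genes was 19.8%. The stromal list therefore leaned to B/T leukemia without moving as 1 group, and the part of stroma in the result was not tested.

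Proliferation genes differed little. S-phase genes counted 8 higher in B/T leukemia and 2 in mixed lineage leukemia among 38, with a median of -0.48, and G2/M genes 2 and 2 among 33, with a median of 0.15. The S-phase count toward B/T leukemia was near the share over all genes, 19.8%. Mki67, the common marker of cycling cells, read 21304 against 22166. Bub1b, a spindle checkpoint kinase, stood out at 3918 against 13348 (3.41-fold). Regulators of cell-cycle entry differed more. Ccnd1, cyclin D1, read 658 against 4516 (6.86-fold), and its kinase Cdk4 2008 against 6133 (3.05-fold), both higher in B/T leukemia. The brakes Rb1 and Cdkn2d read 8116 against 1679.8 (4.83-fold) and 14588 against 3374 (4.32-fold), both higher in mixed lineage leukemia.

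Medians of ribosomal protein and oxidative phosphorylation genes lay toward B/T leukemia by small amounts. Ribosomal protein genes counted 5 higher in B/T leukemia and 0 in mixed lineage leukemia among 43, with a median of -0.52, where the spiked-in controls stood at -0.35. Under quantile normalization that median was -0.16. Oxidative phosphorylation genes counted 8 and 0 among 53, with a median of -0.57 and of -0.48 under quantile normalization. Both list medians lay within the range of the spiked-in controls, from -0.58 to -0.08. Over all genes 19.8% were higher in B/T leukemia, a larger share than in either list. Atp5b, the beta subunit of ATP synthase, read 15425 against 46957 (3.04-fold). In glycolysis the isoenzymes separated. Hk3, the hexokinase of myeloid cells, and Hk2 were 8.39-fold and 4.78-fold higher in mixed lineage leukemia, at 15258 against 1819 and 7107 against 1487. Pfkm, the muscle-type phosphofructokinase, and Slc16a1, a lactate transporter, were at least 10.7-fold and 6.56-fold higher in B/T leukemia, at 109 against 2015 and 1776 against 11655.

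Early response genes were mixed. Fos read 32385 on the mixed lineage array, 6099 on the B/T array, 1007 on the proB array and 6749 in normal marrow (5.31-fold), Gadd45b, a stress-response gene, 18668 against 3642 (5.13-fold), and Ier3 10856 against 1471 (7.38-fold). Dusp2, a phosphatase of lymphocytes, ran the other way at 734 against 8781 (12.0-fold), and Egr1 was level at 4516 against 5763. Of 28 measured genes 10 were higher in mixed lineage leukemia against 2 in B/T leukemia. Chaperones of the mitochondrion, Hspd1 and Hspe1, read 5081 against 17794 (3.50-fold) and 5301 against 19630.3 (3.70-fold). The stress-induced Hspa1b was level, at 5983 against 5058. Of 19 chaperones 6 were higher in B/T leukemia and 2 in mixed lineage leukemia.

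Survival genes of the BCL2 family had no shared direction. Their median was 0.00, with 8 higher in mixed lineage leukemia against 4 in B/T leukemia among 21. Pmaip1, the BH3 protein NOXA, read 1879 against 349 (5.38-fold), and Apaf1, the apoptosome scaffold, 5801 against 1257 (4.61-fold). Bcl2l11, the BH3 protein BIM, was 2.34-fold higher in B/T leukemia, a call lost with averaged probe sets. Bcl2 read 462 on the mixed lineage array, 581 on the B/T array, 19896 on the proB array and 1398 in normal marrow, within 2-fold between both leukemias, although 1 of its other probe sets was higher in mixed lineage leukemia, at 667 against 237.

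Housekeeping genes had a median of 0.07, with 1 higher in mixed lineage leukemia, 3 in B/T leukemia and 16 in neither of 20. Hprt read 14901 against 9197 and Tbp 1752 against 1567. The probe sets of Actb disagreed, at 53647 against 31315 and, in the opposite direction, 18053 against 93056. Xist, the RNA of the inactive X chromosome, read 33134 against 58725 by its brightest probe set, within 2-fold, while the others were more than 2-fold higher in B/T leukemia, at 947 against 5172 and 392 against 2472. The Y-linked Uty and Kdm5d lay near or below the floor, at 199 against 53.6 and 200.3 against 16.5.

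**Figure D4:**
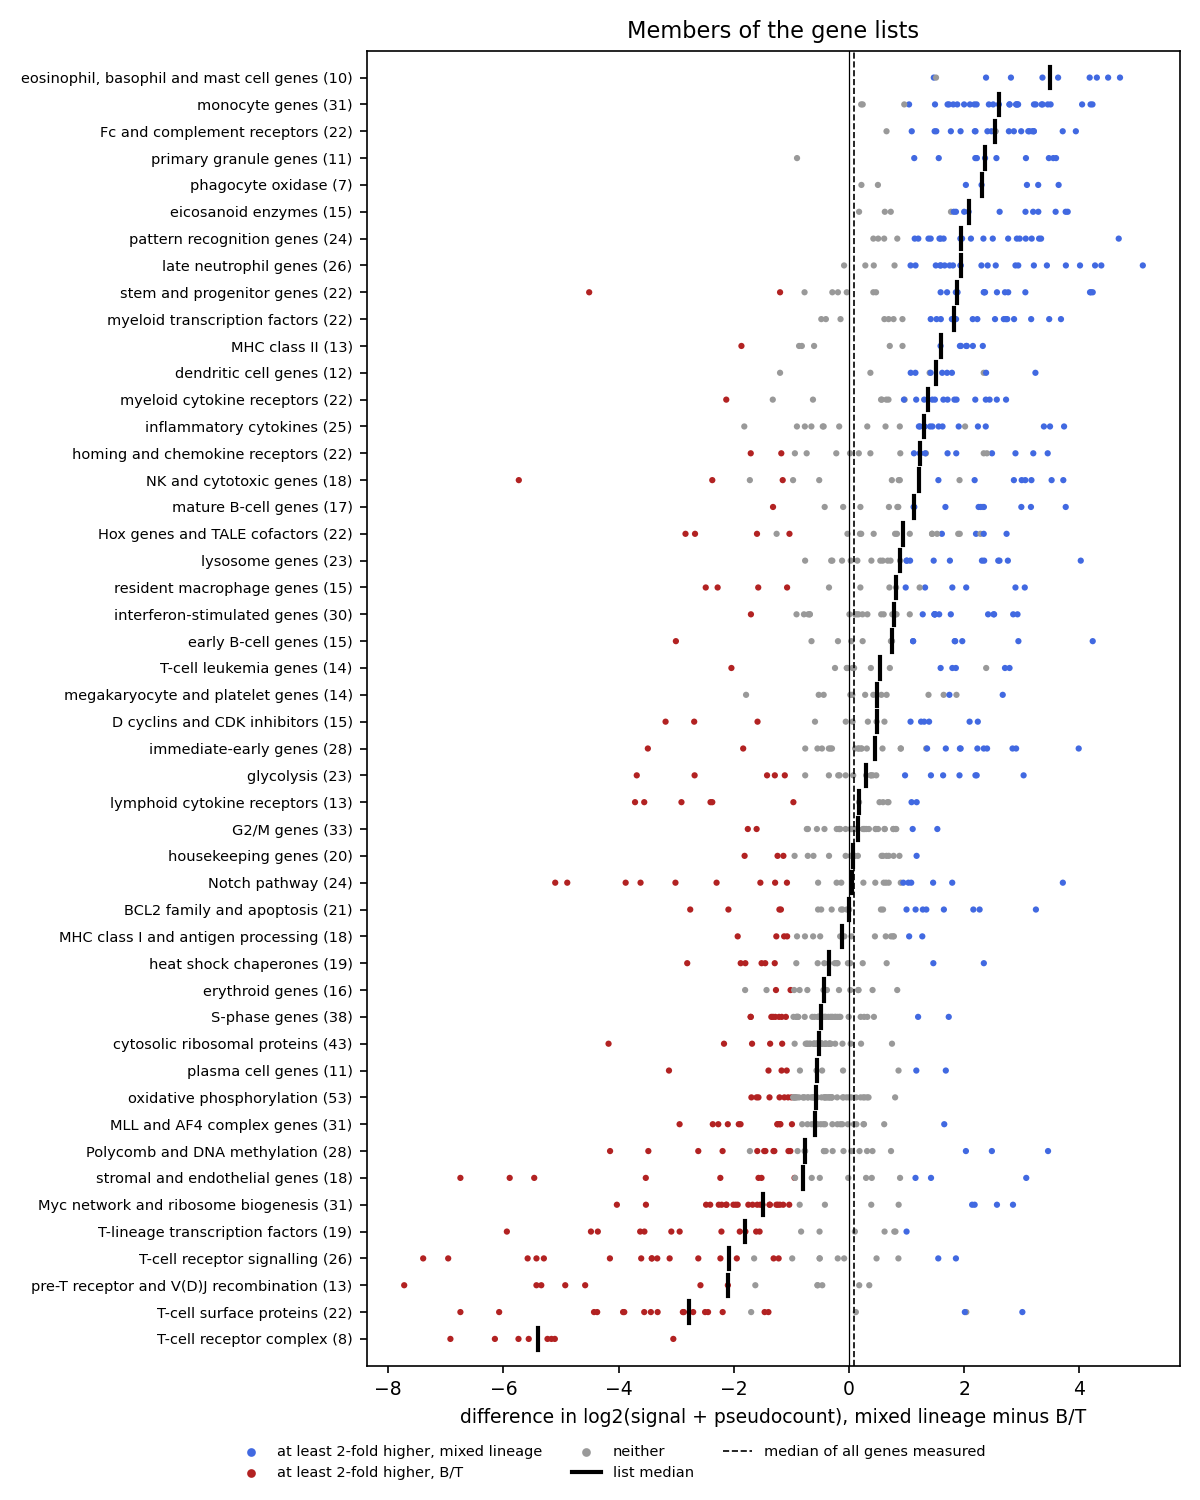
Differences of the measured members of 48 gene lists, mixed lineage minus B/T on the log2(signal + 51.5) scale, ordered by list median; blue and red points are genes at least 2-fold higher in mixed lineage and B/T leukemia after raising signals to the floor, grey points are neither, black bars are list medians and the dashed line is the median of all genes. The T-cell receptor, surface, V(D)J, signalling and T-lineage factor lists lie lowest, down to a median of -5.40 for the receptor complex, and basophil, monocyte, Fc receptor and primary granule lists highest, up to 3.50.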

How the data were processed

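Total RNA from 4 samples was hybridised to Affymetrix mouse arrays, 1 array per group. The deposited values were intensity values, 1 linear signal per probe set, which MAS5 had produced, per the submitters' processing notes. No version or setting of it is given in the sources used here. Each array had a 2% trimmed mean of 1000. Symbols came from the platform annotation: 34741 of 34945 probe sets matched RefSeq by gene identifier and 0 symbols changed. The 64 control probe sets, 932 with several symbols and 9160 without one were left out.

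Differences used log2(signal + 51.5) and a floor of 189; these constants are the 25th percentile and the median of signals. No test was run, since each group had 1 array, and the array number limits precision. The 49 lists (1219 genes, 132 not analysed here) and the members were chosen with earlier results of these data known. Named genes were the 20 largest folds each way, up to 6 per list each way, and Kmt2a, Aff1, Hoxa and Meis1 genes; others were added for their role with values known. Alternatives covered scaling (quantile, 75th percentile, loess), pseudocount, floor and choice of probe set. Python 3.11.15, pandas 2.3.3, numpy 2.4.6 and statsmodels 0.14.6 were used, and the counting was tested on simulated data.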

Additional observations from a re-analysis of the deposited data

How the results depend on the processing

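No paired analysis was possible because each group had 1 array. The alternatives were quantile, loess and 75th percentile scaling, other pseudocounts and floors, raising signals to the floor, and other choices of probe set. Of 20 recomputed totals, 17 stayed within 1.5 times: 4359 genes were higher in mixed lineage leukemia without the floor filter, and 1299 in mixed lineage and 1506 in B/T leukemia with the floor at the 75th percentile, which leaves fewer genes. Under 75th percentile scaling the totals became 3093 and 2224, and the median of all genes rose from 0.09 to 0.29. That median was -0.0042 under quantile scaling, -0.0062 under loess and -0.22 with the higher floor.

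List medians that changed sign, where the cause was not tested, were Notch (-0.0043 under loess, -0.21 with the higher floor, -0.27 without x, s and a probe sets), lymphoid cytokine receptors (-0.19 without the filter, -0.037 with averaged probe sets, -0.96 without x, s and a probe sets), MHC class I (0.064 under 75th percentile scaling), Hox genes (-1.03 with the higher floor) and housekeeping genes (-0.26 without x, s and a probe sets). Others moved with their direction kept. With the higher floor, medians were -3.50 for T-cell surface proteins, -4.58 for V(D)J genes, 2.93 for NK, 1.74 for mature B-cell, 0.20 for macrophage, 2.77 for pattern recognition, 2.91 for eicosanoid, 1.49 for interferon and 4.24 for basophil genes. With larger pseudocounts the T-cell receptor median was -4.50, that of T-cell surface proteins -2.07 and that of basophil genes 2.29. Basophil genes gave 4.16 with a smaller pseudocount, 2.60 with signals raised to the floor and 1.95 without the filter, and Hox genes 0.25 without the filter. Without x, s and a probe sets, T-cell leukemia genes gave 1.59, NK genes 2.05 and class II genes 0.82.

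Of 216 named genes called higher on an array, 193 kept the call under every alternative that gave them a value. Some named genes had no value with the higher floor, with averaged probe sets or without x, s and a probe sets. Of named genes, Ccr9 changed sign, to 0.14 with averaged probe sets. With 1 array a side, array quality and group cannot be told apart, and signals near 189 carry little information.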

Other observations

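Many of the genes farthest apart were on no list. Of 61 genes at least 16-fold higher in mixed lineage leukemia 44 were outside the lists, and of 93 at least 16-fold higher in B/T leukemia 64 were. Among the 20 with the largest folds toward B/T leukemia, Cym, the digestive protease chymosin, read 63.6 on the mixed lineage array, 41625 on the B/T array, 549 on the proB array and 27.5 in normal marrow (at least 220.1-fold). Endou, an endoribonuclease, read 80.0 on the mixed lineage array, 21947 on the B/T array, 542 on the proB array and 236 in normal marrow (at least 116-fold), and Trnp1, a chromatin-associated nuclear protein, 62.6 on the mixed lineage array, 17064 on the B/T array, 3570.2 on the proB array and 133 in normal marrow (at least 90.2-fold). All 3 were brightest on the B/T array. Itm2a, a membrane protein of developing thymocytes, read 421 on the mixed lineage array, 45614 on the B/T array, 16408 on the proB array and 661 in normal marrow (108-fold). The T-cell receptor segments Trbv1, Trgv4 and Trgv1 read 315 against 43995 (139.7-fold), 148 against 28524 (at least 151-fold) and 141 against 12864 (at least 68.0-fold). Receptor segments have near-identical copies, so the segment name is uncertain. Cd163l1, a scavenger receptor of gamma-delta T cells, read 45.9 on the mixed lineage array, 13017 on the B/T array, 19681 on the proB array and 34.2 in normal marrow (at least 68.8-fold). It was brighter in proB ALL than in B/T leukemia. Genes usually studied in other tissues were there too. Col27a1, a cartilage collagen, read 173 on the mixed lineage array, 16927 on the B/T array, 237 on the proB array and 299 in normal marrow (at least 89.5-fold), Gfra1, the coreceptor for the neurotrophic factor GDNF, 157 on the mixed lineage array, 12185 on the B/T array, 184 on the proB array and 485 in normal marrow (at least 64.4-fold), and Syt13, a synaptotagmin, 135 on the mixed lineage array, 11393 on the B/T array, 43.2 on the proB array and 118 in normal marrow (at least 60.2-fold). These 3 were bright on the B/T array alone.

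Toward mixed lineage leukemia, Slco4c1, an organic anion transporter, read 8632 on the mixed lineage array, 118 on the B/T array, 131 on the proB array and 1723 in normal marrow (at least 45.6-fold). Rgs18, a regulator of G protein signals in platelets and myeloid cells, read 13477 on the mixed lineage array, 439 on the B/T array, 2332 on the proB array and 4678 in normal marrow (30.7-fold). F5, coagulation factor V, read 12188 on the mixed lineage array, 401 on the B/T array, 188 on the proB array and 3639 in normal marrow (30.4-fold). In each of these the mixed lineage array was above normal marrow. Ppp3ca, the catalytic subunit of calcineurin, was 28.6-fold higher, Gca, the neutrophil calcium-binding protein grancalcin, 28.1-fold, and Orm1, an acute-phase protein, 23.3-fold. Sgms2, Crispld2, Svip, Clec5a, Fmnl2, Abcd2, Megf9, Mogat2 and Btnl9 had folds between at least 21.7-fold and 28.1-fold, and Megf9 lost its call without x, s and a probe sets. Cldn1, a tight-junction protein, was at least 24.0-fold higher by its brightest probe set, and that call was lost with averaged probe sets.

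The next genes were chosen after their values were seen. A pair tied to the Lin28 RNA-binding axis of fetal blood cells ran in opposite directions. Lin28a read 3605 on the mixed lineage array, 182 on the B/T array, 153 on the proB array and 1047 in normal marrow (at least 19.1-fold higher in mixed lineage leukemia), and Igf2bp3 238 on the mixed lineage array, 7502 on the B/T array, 1540.5 on the proB array and 102 in normal marrow (31.6-fold higher in B/T leukemia), with 5 of 6 measured probe sets. Ncam1, the adhesion molecule CD56, read 3865 on the mixed lineage array, 15.8 on the B/T array, 8.93 on the proB array and 1447 in normal marrow (at least 20.4-fold), with 3 of 6 measured probe sets at least 2-fold higher in mixed lineage leukemia against 0 in B/T leukemia. Smo, the Hedgehog signal transducer, read 62.8 on the mixed lineage array, 9694 on the B/T array, 79.1 on the proB array and 427 in normal marrow (at least 51.3-fold higher in B/T leukemia). Axin2, a common target of Wnt signals, read 83.5 on the mixed lineage array, 2923 on the B/T array, 128 on the proB array and 323 in normal marrow (at least 15.5-fold). It was above the floor in B/T leukemia and normal marrow only. Phgdh, the first enzyme of serine synthesis, read 2190.4 on the mixed lineage array, 26436 on the B/T array, 17864 on the proB array and 4708 in normal marrow (12.1-fold), and Cad, which begins pyrimidine synthesis, 516 on the mixed lineage array, 9588 on the B/T array, 3967 on the proB array and 4199 in normal marrow (18.6-fold), with 2 of its 3 measured probe sets in that direction and the dimmest at 395 against 132.6. Both leukemias given AF4-MLL alone were brighter than the mixed lineage leukemia for Phgdh. Hmgn1, a nucleosome-binding protein, read 3928 on the mixed lineage array, 48662 on the B/T array, 19519 on the proB array and 14598 in normal marrow (12.4-fold), and Hopx, a homeodomain protein of stem cells, 13490.1 on the mixed lineage array, 960.4 on the B/T array, 1942 on the proB array and 2926 in normal marrow (14.0-fold higher in mixed lineage leukemia).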
